A study of Rattus norvegicus with 23 samples.

Results

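The transcripts of 9 genes that are commonly read as p53 targets or as markers of senescence, Cdkn1a, Cdkn2a, Cdkn2b, Mdm2, Ccng1, Bbc3, Bax, Phlda3 and Gdf15, were followed in the lungs of elderly rats that had inhaled a TiO2 aerosol. The genes were chosen by symbol, as the non-control spots of the array that carry these gene names, and were 9 of the 25597 genes with a symbol on the array and 9 of the 23011 genes tested. Lung RNA of the accessory lobe was hybridised on Agilent single-colour rat arrays, with 1 rat per array. Male F344 rats, 19 months old, were exposed nose-only to filtered air (control) or to a nanostructured TiO2 P25 aerosol at 10 mg/m3 over 4 weeks, with 5 exposure days a week of 6 h each, and were killed at the end of exposure (D0) or 28 days later (D28). The arrays analysed here came from 6 control and 5 exposed rats of D0 and from 6 control and 6 exposed rats of D28. Since the methods give 6 rats per group, 1 exposed rat of D0 is not analysed here. For the exposed rats of D28 one label field states day 0, but the titles and descriptions state day 28, and these were followed.

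p53 is a transcription factor that is stabilised after DNA damage and other stress and that raises the transcription of genes for cell-cycle arrest, apoptosis and its own degradation. Cdkn1a encodes p21, an inhibitor of cyclin-dependent kinases that stops cells in G1. Cdkn2a encodes p16Ink4a and p19Arf, and its neighbour Cdkn2b encodes p15Ink4b. Of these proteins, p16Ink4a and p15Ink4b inhibit the kinases that inactivate the retinoblastoma protein. The transcripts of both genes tend to accumulate in ageing tissue and in senescent cells. Cdkn2b is also known as a gene induced by TGF-beta. Mdm2 is the ligase that marks p53 for degradation, Ccng1 is a cyclin that acts in the same feedback, Bbc3 (Puma) and Bax promote apoptosis at mitochondria, Phlda3 restrains Akt, and Gdf15 is a secreted stress cytokine. Lung tissue holds epithelium, endothelium, fibroblasts and leukocytes, and in bulk RNA fewer cells of a type and less RNA per cell cannot be told apart.

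The genes were read by 14 probes of 60 bases, of which 13 passed the filter on dim probes. The left-out probe of Cdkn2b was not well above background on any array, whereas every other probe was on all arrays except 1 probe of Cdkn1a, which was well above background on 4 of the 6 exposed arrays of D28. The results below turned on 6 probes, and their first 30 bases are shown in lower case, 5′ to 3′, so that the measured stretch of each transcript is known. Their positions are those that the array files give for the rat build rn4, where no annotation of that build was used here to place them in exons or untranslated parts. The probes of Cdkn1a lay at chr20:7386596-7386655 (A_44_P914438, printed on 10 spots) and chr20:7385506-7385565 (A_44_P515275, 1 spot) on the plus strand, 1090 bases apart. The 3 kept probes of Cdkn2b lay on the minus strand at chr5:108940426-108940485 (A_42_P528537), chr5:108938445-108938504 (A_44_P1105827) and chr5:108936106-108936165 (A_44_P1105832), spread over 4320 bases. The array files assign each of these 3 probes to a different transcript record, so they need not read the same transcript of the gene. The files give no position for the probe of Bbc3 (A_44_P437945).
Cdkn1a A_44_P914438: ccctgtttctgtaacaccctgagctggact
Cdkn1a A_44_P515275: tcagtgtgtcttaattattatttgtgtttt
Cdkn2b A_42_P528537: ctgaaatacagcttctcatgaaactatgac
Cdkn2b A_44_P1105827: aagaaactcacaactcaaagttactggagc
Cdkn2b A_44_P1105832: ggaaatggacaggctctgggggaaaaatga
Bbc3 A_44_P437945: cagcctgtaaaatactgtacatgcactgct

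The values below are log2 signals after quantile normalisation, averaged over the probes of a gene, and are compared between arrays for the same gene only. Between 69.5 and 77.9% of the spots on an array stood well above its background. A gene was called a DEG at a limma adjusted p below 0.05, adjusted over the 23011 genes, together with a FC of 1.5 or more. The arrays came from 5 slides, of which 3 held exposed and control arrays of both days. Of the others, 1 held every group except the controls of D28, and 1 held only control replicate 4 of D28.

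On D0, at the end of exposure, none of the 9 genes was a DEG, beside 1.79% of all genes tested, and none had an unadjusted p below 0.05 in limma, beside 11.9% of all genes. Their log2 FC ranged from -0.15 for Cdkn2b to 0.42 for Gdf15, 5 were positive and 4 negative, and their median was 0.19 beside -0.0008 over all genes. The pro-apoptotic genes had the smallest p of the 9. Bbc3 had a median of 10.78 in control rats, from 10.58 to 10.998, and values of 11.03, 10.87, 10.96, 11.07 and 10.96 in the 5 exposed rats, so that 2 of the exposed rats lay above every control. Its log2 FC was 0.20 (SE 0.10, limma adjusted p = 0.45). Bax had a log2 FC of 0.19 (95% confidence interval -0.01 to 0.40, limma adjusted p = 0.49), with 0.13 for one of its probes and 0.25 for the other.

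The cell-cycle inhibitors did not separate the groups on D0. Cdkn1a had a median of 7.95 in control rats, from 7.73 to 8.11, and values of 7.92, 8.33, 8.36, 8.29 and 8.04 in exposed rats, of which 3 were above every control. Its log2 FC was 0.23 (95% confidence interval -0.21 to 0.68, limma adjusted p = 0.84). Cdkn2b had a median of 7.83 in control rats, from 7.70 to 8.01, and values of 7.66, 7.64, 7.95, 7.46 and 7.70 in exposed rats. The exposed rats were therefore below every control in 4 of 5 cases, with a log2 FC of -0.15 (95% confidence interval -0.41 to 0.11, limma adjusted p = 0.80). This mean hides probes of opposite sign. The log2 FC was -0.29 for A_42_P528537 (limma unadjusted p = 0.0308, adjusted p = 0.39) and -0.31 for A_44_P1105832 (95% confidence interval -0.72 to 0.09). It was 0.15 for A_44_P1105827 (limma adjusted p = 0.98). The intervals of the gene means leave room for a change of up to 1.5-fold or more in Cdkn1a, Cdkn2a and Gdf15. They do not in Mdm2 (-0.26 to 0.15), Ccng1 (-0.28 to 0.13), Bbc3, Bax, Phlda3 or Cdkn2b. For Cdkn2b this holds for the mean of its probes, since the interval of A_44_P1105832 alone reached beyond 1.5-fold.

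On D28, Cdkn2b was under-expressed in exposed rats and was the only DEG among the 9, beside 0.756% of all genes that were DEGs and 0.269% that were DEGs in this direction. Its signal had a lowest value of 8.46, a median of 8.62 and a highest value of 9.02 in the 6 control rats, and a lowest value of 7.58, a median of 7.99 and a highest value of 8.34 in the 6 exposed rats. All 6 exposed rats lay below every control, a separation that 1.22% of all genes had in either direction. The log2 FC was -0.68 (SE 0.12, a FC of 1.604, limma adjusted p = 0.00483). With the slide as a block the log2 FC was -0.73 (limma adjusted p = 0.000982), and it was -0.99, -0.69 and -0.34 within the 3 slides that held both groups. In a fit to the D28 arrays alone the same difference had a limma adjusted p of 0.0826, so that the call rests on the spread estimated over all 4 groups. Where the background was not subtracted the log2 FC was -0.51, under the FC limit, with a limma adjusted p of 0.00817.

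**Figure D1:**
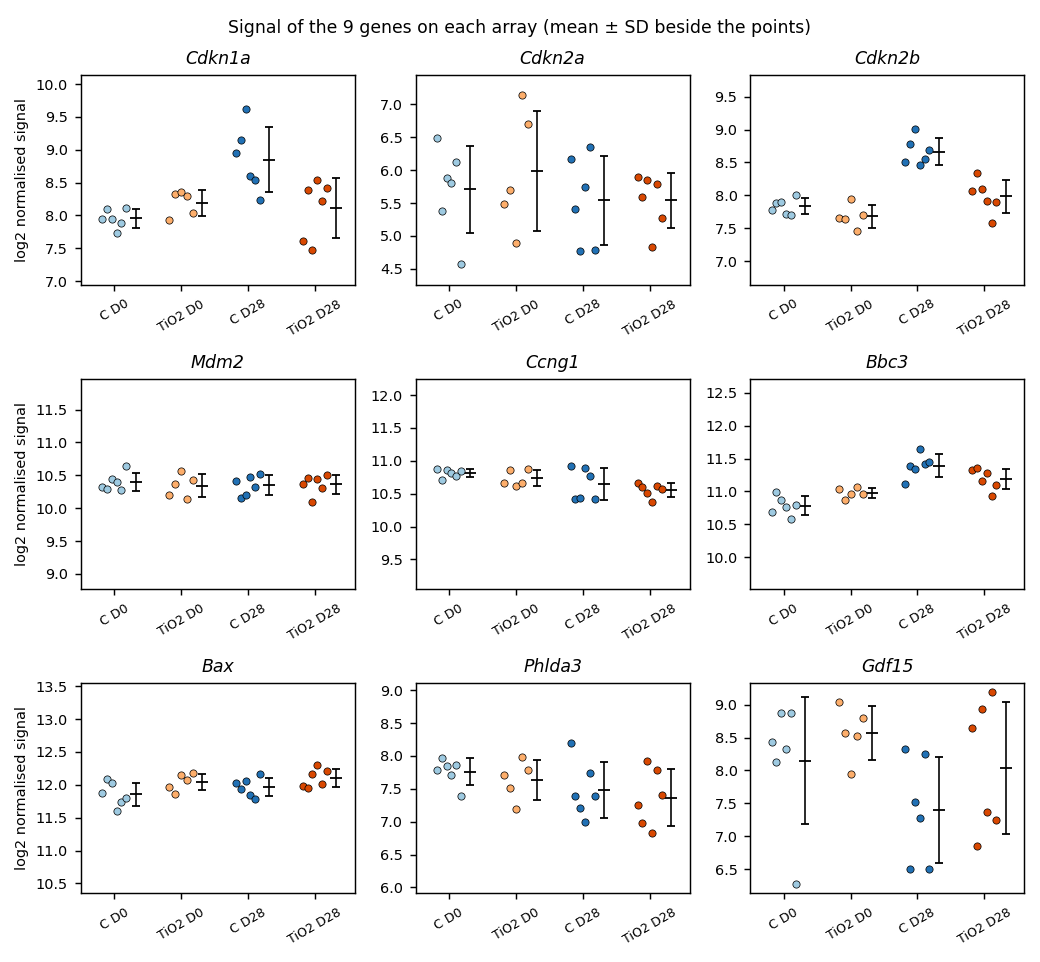
log2 normalised signal (vertical axis, each panel spanning 3.2 log2 units) of each of the 9 genes on each of the 23 arrays, with control (C) and exposed (TiO2) rats of D0 and D28 along the horizontal axis; bars beside the points are the mean and SD. Cdkn2b, Cdkn1a and Bbc3 were highest in the control rats of D28, whereas Gdf15 and Cdkn2a spread widely within groups.

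Cdkn1a on D28 did not pass the threshold as a mean of its probes, but it did on one of them. The lowest, median and highest values were 8.23, 8.78 and 9.62 in control rats and 7.47, 8.31 and 8.55 in exposed rats, of which 3 lay below every control. The log2 FC was -0.74 (SE 0.21, unadjusted p = 0.00167, limma adjusted p = 0.0827). An unadjusted p below 0.05 was found for 3 of the 9 genes on D28, beside 11% of all genes. The probe on 10 spots, A_44_P914438, had values from 11.53 to 12.58 in control rats and from 11.19 to 11.53 in exposed rats. All 6 exposed rats were below every control on that probe, with a log2 FC of -0.68 (SE 0.13, limma adjusted p = 0.0175 over all probes). The probe on 1 spot, A_44_P515275, spread from 3.75 to 5.57 in exposed rats and gave a log2 FC of -0.80 (SE 0.32, limma adjusted p = 0.36). Within slides the log2 FC of Cdkn1a was -0.90 and -0.90 on those with 2 arrays of each group and 0.16 on the slide with 1 array of each. Without control replicate 6 of D28, Cdkn1a was a DEG with a log2 FC of -0.86 (limma adjusted p = 0.0409).

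The probes of Cdkn2b did not move equally on D28. A_42_P528537 had a log2 FC of -0.82 (SE 0.12, limma adjusted p = 0.00103), with all 6 exposed rats below every control. A_44_P1105827 had a log2 FC of -0.79 (SE 0.18, limma adjusted p = 0.0489) with 5 of 6 below every control. A_44_P1105832 had a log2 FC of -0.43 (SE 0.19, limma adjusted p = 0.43) with 4 of 6 below. All 3 were lower in exposed rats, and the difference between probes was not tested.

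**Figure D2:**
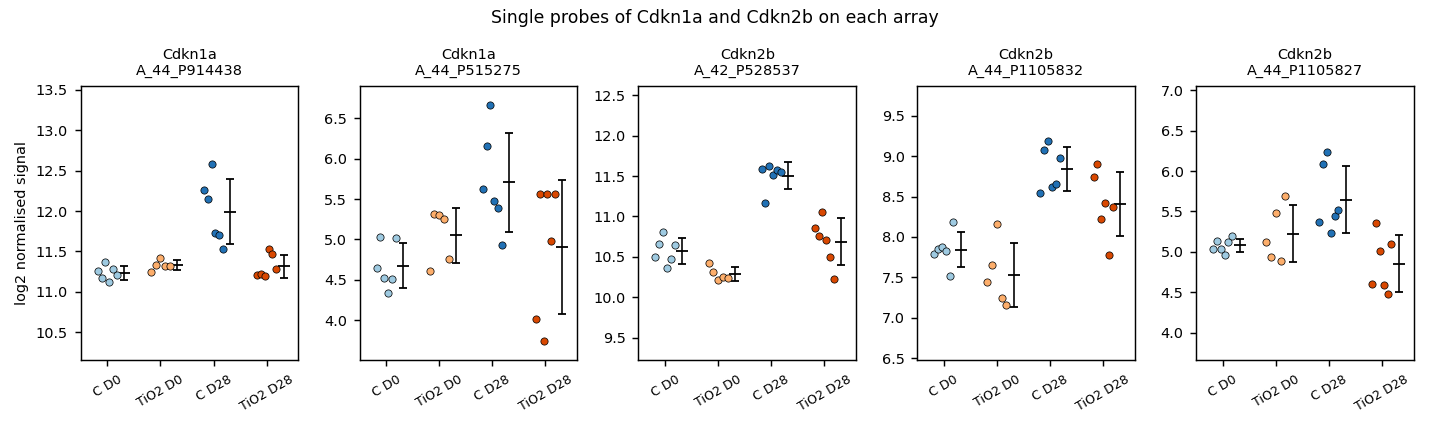
log2 normalised signal (vertical axis, each panel spanning 3.4 log2 units) of the 2 probes of Cdkn1a and the 3 kept probes of Cdkn2b on each array, by group, with the mean and SD beside the points. On A_44_P914438 and A_42_P528537 all 6 exposed rats of D28 lie below all 6 controls of D28.

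The other genes were not DEGs on D28. Bbc3 had values from 11.11 to 11.65 in control rats, with a median of 11.41, and from 10.93 to 11.35 in exposed rats, with a median of 11.22. The groups overlapped, and the log2 FC was -0.21 (SE 0.09, unadjusted p = 0.0381, limma adjusted p = 0.40). Gdf15 had a lowest, median and highest value of 6.49, 7.396 and 8.33 in control rats and of 6.86, 8.002 and 9.20 in exposed rats, with 3 exposed rats above every control. Its log2 FC of 0.64 had a 95% confidence interval from -0.33 to 1.61 (limma adjusted p = 0.69). Mdm2, the feedback gene of p53, had a log2 FC of 0.01 (95% confidence interval -0.18 to 0.21), Ccng1 of -0.08 (-0.28 to 0.11), Bax of 0.13 (-0.06 to 0.33), Phlda3 of -0.12 (-0.54 to 0.29) and Cdkn2a of 0.00 (-0.78 to 0.78). The interval thus lay within a FC of 1.5 for Mdm2, Ccng1, Bbc3, Bax and Phlda3, and reached beyond it for Cdkn2a and Gdf15. Averaged over both days, none of the 9 genes was a DEG, beside 1.87% of all genes, and Cdkn2b had a log2 FC of -0.42 (SE 0.09, limma adjusted p = 0.00375), under the FC limit, in company with 6.56% of all genes that passed the adjusted p alone.

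The exposure effects of D28 and D0 were set against each other directly. None of the 9 genes passed in limma, beside 0.0304% of all genes, and 3 had an unadjusted p below 0.05 beside 3.44% of all genes. Cdkn1a had a difference of -0.97 in log2 FC (SE 0.30, limma adjusted p = 0.76), Cdkn2b of -0.53 (SE 0.17, limma adjusted p = 0.87) and Bbc3 of -0.40 (SE 0.13, limma adjusted p = 0.95). The effects of D0 and D28 on Cdkn2b are therefore not shown to differ after adjustment.

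The same 3 genes were over-expressed in the control rats of D28 compared with the control rats of D0. They were 3 of 9 genes, beside 0.608% of all genes that were DEGs in this comparison and 0.387% that were higher DEGs, and in each the 6 controls of D28 lay above all 6 controls of D0, which 1.6% of all genes did in either direction. Cdkn2b rose from a median of 7.83, from 7.70 to 8.01, to a median of 8.62, from 8.46 to 9.02, with a log2 FC of 0.83 (SE 0.12, a FC of 1.78, limma adjusted p = 0.000486). Bbc3 rose from a median of 10.78, from 10.58 to 10.998, to a median of 11.41, from 11.11 to 11.65, with a log2 FC of 0.61 (SE 0.09, a FC of 1.53, limma adjusted p = 0.00104). Cdkn1a rose from a median of 7.95, from 7.73 to 8.11, to a median of 8.78, from 8.23 to 9.62, with a log2 FC of 0.89 (SE 0.21, a FC of 1.86, limma adjusted p = 0.0382). This comparison shares its D28 controls with the exposure effect of D28, so that a high level in these 6 rats enters both with opposite signs.

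The rises differed in how far they held. With the slide as a block, Cdkn2b had a log2 FC of 0.87 (limma adjusted p = 0.000216) and 1.02, 0.79 and 0.67 within slides. Bbc3 had 0.56 with the slide as a block (limma adjusted p = 0.00226), which fell under the FC limit, and 0.37, 0.63 and 0.65 within slides. Cdkn1a had 0.82 with the slide as a block (limma adjusted p = 0.0573) and 1.29, 0.82 and 0.12 within slides. Leaving out any 1 of 9 control arrays, replicates 1 to 5 of D0 or replicates 1 to 4 of D28, raised the limma adjusted p of Cdkn1a to between 0.0515 and 0.107, with log2 FC from 0.74 to 0.94. Leaving out control replicate 5 of D0 or control replicate 4 of D28 left Cdkn2b as the one DEG of the 9, since Bbc3 then had a log2 FC of 0.57 or 0.56. On its probe on 10 spots Cdkn1a had a log2 FC of 0.76 (SE 0.13, limma adjusted p = 0.00586), with no overlap between the days. On its probe on 1 spot it had 1.03 (SE 0.32, limma adjusted p = 0.17), which did not pass. For Cdkn2b, A_44_P1105827 had 0.57 (SE 0.18, limma adjusted p = 0.19) and did not pass. A_42_P528537 had 0.93 (limma adjusted p = 0.000148) and A_44_P1105832 had 1.00 (limma adjusted p = 0.00998).

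In exposed rats no step between the days passed the threshold. From D0 to D28 in exposed rats the log2 FC was 0.30 for Cdkn2b (SE 0.12, limma adjusted p = 0.54), 0.21 for Bbc3 (SE 0.10, limma adjusted p = 0.64) and -0.08 for Cdkn1a (SE 0.22, limma adjusted p = 0.95). The exposed rats of D28 had medians of 7.99, 11.22 and 8.31 for these genes, between those of the D0 controls and the D28 controls. The difference between the steps in exposed and in control rats is the same contrast as that between the exposure effects, given above, and did not pass. The other 6 genes had limma adjusted p between 0.45 and 0.90 in control rats, with log2 FC from -0.76 for Gdf15 (SE 0.47) to 0.12 for Bax.

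**Figure D3:**
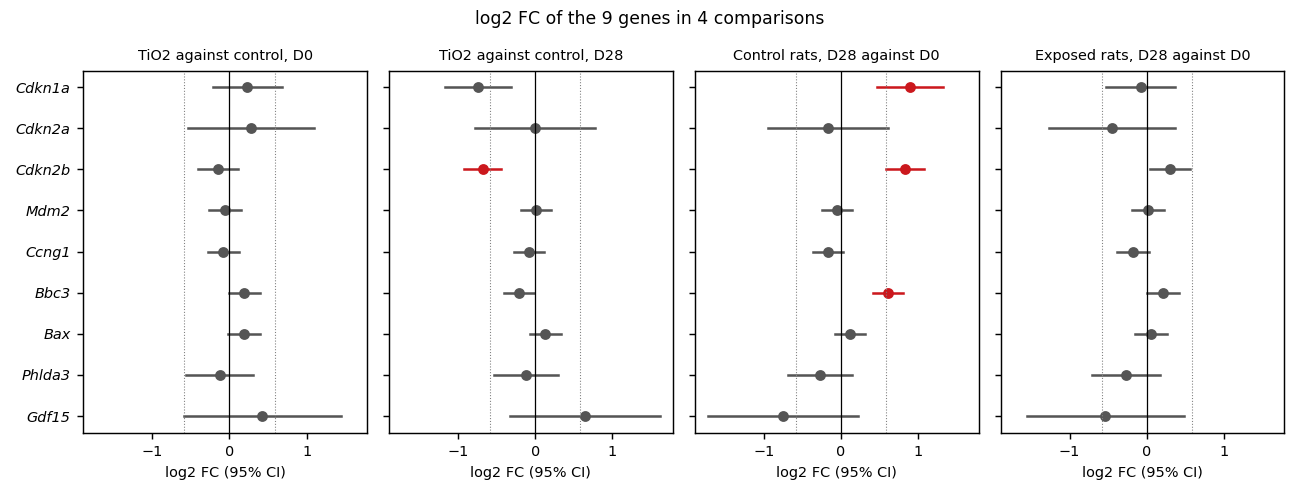
log2 FC (horizontal axis) with its 95% confidence interval for each of the 9 genes in 4 comparisons; red marks DEGs and dotted lines a FC of 1.5. Cdkn2b is red at -0.68 in exposed against control rats of D28, and Cdkn1a, Cdkn2b and Bbc3 are red at 0.89, 0.83 and 0.61 in control rats of D28 against D0.

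Circadian clock genes differed between the same groups, and some differed on D0 as well. A first list held 11 genes taken to rise with Nr1d1, a repressor of the clock, with Nr1d1 itself among them. Of these, 7 were lower DEGs in control rats of D28 against D0, beside 0.222% of all genes. In exposed against control rats of D28, 4 were higher DEGs, beside 0.487%. Of 5 genes taken to rise with Arntl, itself included, 3 were higher DEGs in the former comparison, beside 0.387%, and 3 lower DEGs in the latter, beside 0.269%. On D0 the exposed rats had lower Nr1d1 (log2 FC -2.50, SE 0.37, limma adjusted p = 0.000625) and Per1 (log2 FC -1.41, SE 0.33, limma adjusted p = 0.0182). They had higher Cry1 (log2 FC 0.81), of the Arntl list, and Bhlhe41 (log2 FC 0.68). Bhlhe41 belongs to the Nr1d1 list and so moved against Nr1d1 on D0. Dbp, a clock output factor, had a mean of 13.87 ± 0.31 (SD, n = 6) in controls of D0, 12.71 ± 0.43 (n = 5) in exposed rats of D0, 9.74 ± 0.33 (n = 6) in controls of D28 and 12.49 ± 1.01 (n = 6) in exposed rats of D28. Arntl (Bmal1), which activates the clock, had the opposite order, at 7.30 ± 0.43, 7.88 ± 0.49, 9.71 ± 0.26 and 8.47 ± 0.54 in these groups. The controls of D28 did not overlap the other groups in Dbp and Arntl, which were chosen after their values were seen. They did overlap in Nr1d1, with a mean of 6.61 ± 0.68 (n = 6) beside 6.53 ± 0.68 (n = 5) in exposed rats of D0, and the mean of Per1 was lowest in exposed rats of D0, at 9.19 ± 0.58 beside 10.19 ± 0.49 in controls of D28. Over the 23 arrays Pearson's r with Dbp was -0.85 for Cdkn2b, -0.82 for Bbc3 and -0.70 for Cdkn1a, and for deviations from the group means it was -0.48, -0.34 and -0.13. With Arntl it was 0.78, 0.79 and 0.62 for these genes over the arrays, and 0.14, 0.09 and -0.01 in the deviations. The hour at which rats were killed is not given in the sources used here, and the part of clock phase in the differences of Cdkn2b, Bbc3 and Cdkn1a was not tested.

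Markers of structural cells were also set beside the D28 result. The summed signal of 9 endothelial markers ran from 76686 to 99804 in controls and from 62246 to 81517 in exposed rats of D28, and that of 8 type I pneumocyte markers from 249372 to 307992 and from 213894 to 266305. None of these markers was a DEG on D28, beside 0.756% of all genes, and each was well above background on at least 1 array of every group. On D0 the sums were 73237 to 86447 in controls and 59787 to 77239 in exposed rats for endothelium. For type I pneumocytes they were 249065 to 287780 and 193947 to 242376, without overlap. Macrophage markers ran the other way, at 178259 to 224640 in controls and 200455 to 239790 in exposed rats of D28, with 3 of 16 as higher DEGs on D28, beside 0.487% of all genes, and 4 of 16 on D0, beside 1.1%, and Marco was not well above background on any array of these D28 groups. These were Itgam, with log2 FC of 0.99 and 0.93 on D0 and D28, Chi3l1, with 1.19 and 0.95, Ctsk, with 0.67 and 0.84, and on D0 Siglec1, with 0.89. Of 15 neutrophil markers, 1 was a higher DEG on D0, Lcn2 (log2 FC 1.65, SE 0.28, limma adjusted p = 0.00139), beside 1.1% of all genes, and none on D28, beside 0.487%. On each day 6 of the 15 had a positive and 9 a negative log2 FC, with medians of -0.06 on D0 and -0.14 on D28. The median of their summed signal was nevertheless higher in exposed rats, with overlapping ranges. On D0 it was 29230 in controls (26210 to 60739) and 58435 in exposed rats (23986 to 61708). On D28 it was 31774 in controls (21625 to 45078) and 38986 in exposed rats (33392 to 72438). Ltf was not well above background on any array, nor were Ngp in exposed rats of D0 and Mpo in exposed rats of D28. No DEG was found on either day among 12 T cell, 9 B cell and 10 type II pneumocyte markers, beside 1.79% of all genes on D0 and 0.756% on D28. The summed signal of the type II markers was nevertheless higher in exposed rats. It ran from 383317 to 422522 in controls and from 444877 to 516285 in exposed rats of D0, without overlap. On D28 it ran from 367103 to 445885 and from 411867 to 494614. The part of cell composition in the lower Cdkn2b of exposed rats was not tested.

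For Cdkn2a, Gdf15 and Phlda3 much of the spread lay between slides. The slide took 73.3% of the spread within groups for Cdkn2a, 72.4% for Gdf15 and 66.4% for Phlda3, beside 41.2% for the median gene. Gdf15 ran from 8.25 to 9.20 on the 7 arrays of slide 3 and from 6.27 to 7.94 on the 4 arrays of slide 5, with no overlap. Cdkn2a ran from 5.80 to 7.14 on slide 3 and from 4.57 to 5.60 on slide 5. Both slides held arrays of all 4 groups. With the slide as a block, Gdf15 had a log2 FC of 0.54 on both days, with SE of 0.29 on each (limma adjusted p = 0.39 on D0 and 0.40 on D28). The shares of Mdm2 (57.0%), Ccng1 (53.9%), Cdkn2b (51.2%) and Bbc3 (43.2%) were also above that of the median gene. Bax and Cdkn1a had the smallest shares, at 19.2% and 29.6%.

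**Figure D4:**
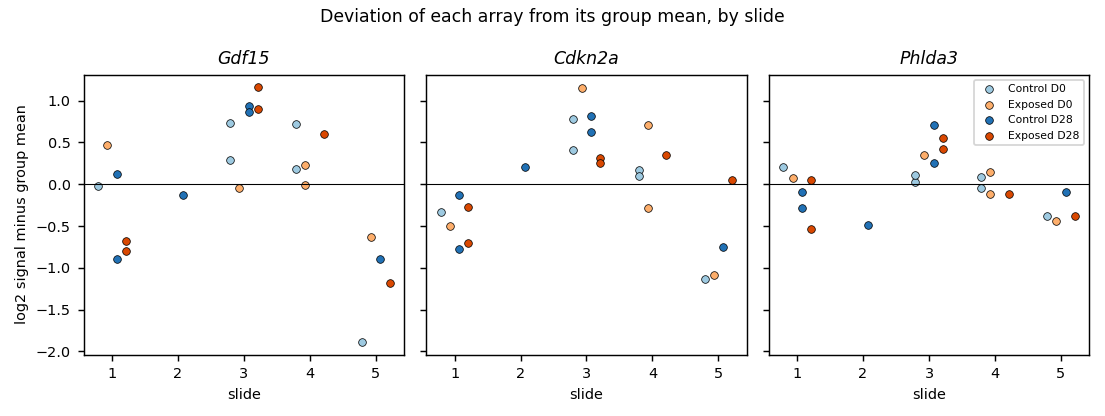
Deviation of each array from the mean of its group (vertical axis, log2 signal) by slide (horizontal axis) for Gdf15, Cdkn2a and Phlda3, with groups in colour. The arrays of slide 3 lie mostly above 0 and those of slide 5 mostly below for all 3 genes.

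The rest of the p53 network was read from lists drawn up from general knowledge. Of 38 other p53 targets, 1 was a DEG on D0, beside 1.79% of all genes, and none on D28, beside 0.756%. Their medians were 0.003 and -0.0002 beside -0.0008 and -0.0055 over all genes. None was a DEG between the control groups, beside 0.608% of all genes. The 1 DEG was Perp, a desmosomal protein and apoptosis effector, which had a log2 FC of -0.59 (SE 0.15, limma adjusted p = 0.0370). Of 12 genes of p53 and its regulators, none was a DEG on either day, beside 1.79% of all genes on D0 and 0.756% on D28. Mdm4, which holds p53 inactive, had a log2 FC of 0.13 (SE 0.17) on D0 and -0.05 (SE 0.16) on D28. In the BCL2 family, 1 of 21 genes was a DEG on D0, Bcl2l11 (Bim), and none on D28, with a log2 FC of Bcl2l11 of -0.78 on D0 (SE 0.20, limma adjusted p = 0.0365). With 1 DEG each, both lists were near the share of all genes. No DEG was found among 19 other senescence-associated genes or 21 genes of the integrated stress response, the pathway that also raises Gdf15, on D0 or D28. Beside 1.79% of all genes on D0 and 0.756% on D28, an absence of DEGs in lists this short is near the share of all genes.

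Genes that the retinoblastoma family represses, and that fall in arrested cells, were over-expressed on D0. Of 31 genes of S phase and mitosis, 16 were higher DEGs, beside 1.1% of all genes, and all 31 had a positive log2 FC, with a median of 0.94 beside -0.0008 over all genes. Plk1, a mitotic kinase, had a mean of 8.15 ± 0.33 (SD, n = 6) in controls and 9.35 ± 0.29 (n = 5) in exposed rats of D0, with a log2 FC of 1.21 (SE 0.16, limma adjusted p = 0.000250). Ccna2, the cyclin of S phase and G2, had 5.17 ± 0.54 and 6.48 ± 0.24, with a log2 FC of 1.31 (SE 0.27, limma adjusted p = 0.00718). On D28 none of the 31 was a DEG in limma, beside 0.756% of all genes, with a median of 0.32 and 29 positive values. Among 20 further CDK inhibitors and G1 genes, Ccne1 (log2 FC 0.90, SE 0.19, limma adjusted p = 0.00832) and Cdkn3 (log2 FC 0.81, SE 0.20, limma adjusted p = 0.0320) were higher DEGs on D0, beside 1.1% of all genes. None of the 20 was a DEG on D28, beside 0.756% of all genes. Cdkn1a and Cdkn2b had log2 FC of 0.23 and -0.15 on D0 in the same arrays.

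Factors that senescent cells secrete moved in part. Of 37 tested, 5 were higher and 2 lower DEGs on D0, beside 1.1 and 0.7% of all genes, and 3 were higher and 1 lower on D28, beside 0.487 and 0.269%. Spp1 (osteopontin) had a log2 FC of 2.20 on D0 (SE 0.51, limma adjusted p = 0.0199) and 2.13 on D28 (SE 0.49, limma adjusted p = 0.0332), Ccl7 of 1.99 on D0 and Ccl2 of 1.46 on D0. Igfbp2 fell by 0.92 on D0 and by 0.66 on D28 on the log2 scale. Between the control groups 1 of 37 was a DEG, beside 0.608% of all genes and 0.387% that were higher DEGs. It was Hgf, with a log2 FC of 1.23 (SE 0.21, limma adjusted p = 0.00466) in D28 controls.

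**Figure D5:**
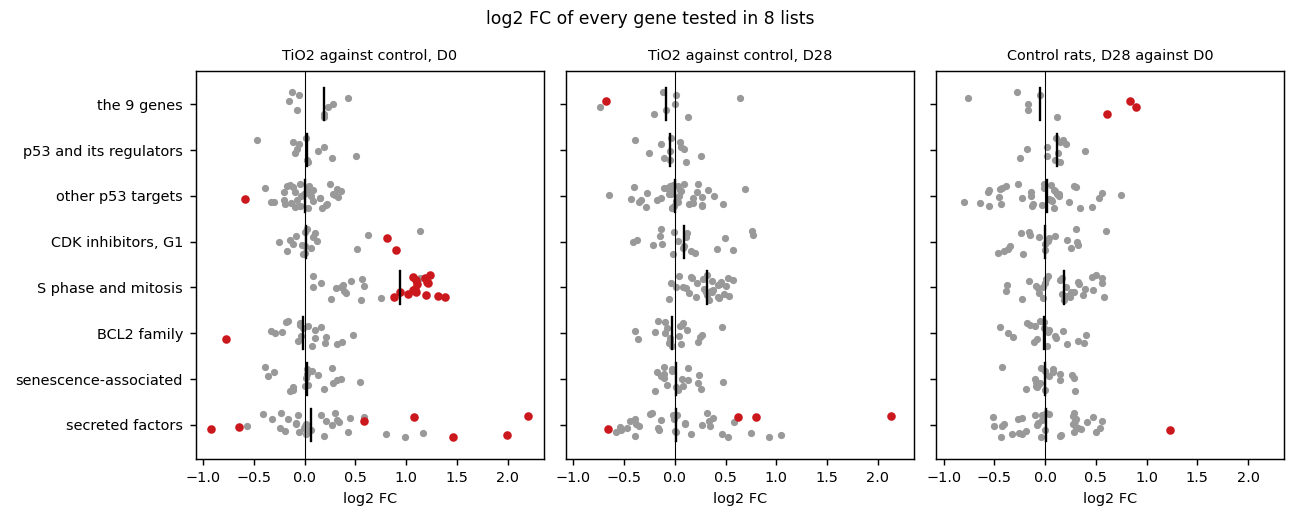
log2 FC (horizontal axis) of every gene tested in 8 lists (rows) for exposure on D0, exposure on D28 and control rats of D28 against D0; red points are DEGs and black ticks are list medians. The 31 genes of S phase and mitosis lie at or above 0 on D0 with a median of 0.94, whereas the other p53 targets centre on 0.

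The genes whose signals ran most like those of the 3 moving genes over the 23 arrays were found by Pearson's r, as a description over arrays that share groups and slides. They were Kctd3 (0.92) and Pik3r1 (0.90) for Cdkn2b, Ssh2 (0.81) and Napepld (0.80) for Cdkn1a, and Adamts4 (0.91) and Ccnjl (0.89) for Bbc3. For deviations from the group means these were 0.74, 0.61, 0.73, 0.63, 0.66 and 0.60 in the same order. Of the genes named here as nearest, Adamts4 was well above background on 7 arrays, Ikzf2 on 11 and LOC102555576 on 22, and the others on all 23. Cdkn2b correlated with Bbc3 at 0.73 and with Cdkn1a at 0.67 over all arrays, and at 0.31 and 0.24 in deviations from the group means. Cdkn2a, Gdf15 and Phlda3 correlated with each other at 0.615 to 0.635 over all arrays and at 0.62 to 0.69 in the deviations. The nearest genes were Gphb5 (0.87) and Ikzf2 (0.86) for Cdkn2a, Rab5c (0.93) and Cnpy3 (0.93) for Gdf15, March2 (0.94) for Phlda3, Aph1a (0.89) and Ppp4c (0.83) for Bax, Naa20 (0.94) and Fam174a (0.90) for Ccng1, and Ssr3 (0.77) and LOC102555576 (0.76) for Mdm2.

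The sequences upstream of Cdkn1a and Cdkn2b are shown because both genes moved together in the control rats of D28. They are the 250 bases before the gene start in RefSeq's GRCr8 build, at chr20:7150682-7150931 on the plus strand for Cdkn1a and chr5:109134856-109135105 on the minus strand for Cdkn2b, with matches to the motifs searched in capitals. Of the 9 genes, 7 had an entry in the table used, and Bbc3 and Bax had none. The motifs were the p53 consensus decamer, the E-box CACGTG, the cAMP response element TGACGTCA, the GC box GGGCGG, the glucocorticoid receptor hexamer AGAACA, the SMAD box GTCTAGAC, the D-box TTATGTAA that Dbp binds and the TATA box TATAAA, on both strands.
Cdkn1a: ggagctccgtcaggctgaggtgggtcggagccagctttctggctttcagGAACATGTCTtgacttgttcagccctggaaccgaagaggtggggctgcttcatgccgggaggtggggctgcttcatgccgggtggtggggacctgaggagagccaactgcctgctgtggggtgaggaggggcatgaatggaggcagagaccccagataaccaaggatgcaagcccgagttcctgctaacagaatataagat
Cdkn2b: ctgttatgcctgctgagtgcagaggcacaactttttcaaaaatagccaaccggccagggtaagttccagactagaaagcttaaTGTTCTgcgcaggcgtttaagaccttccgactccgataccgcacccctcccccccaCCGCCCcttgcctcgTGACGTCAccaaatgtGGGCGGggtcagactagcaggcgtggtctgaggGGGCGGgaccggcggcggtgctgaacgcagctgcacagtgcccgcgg
The window of Cdkn1a held one match, to the p53 consensus decamer, 201 to 192 bases before the start, which 6.64% of all 33469 upstream windows of this length held. The window of Cdkn2b held no match to it, but held the cAMP response element 96 to 89 bases before the start (1.59% of windows), 3 GC boxes (30.5% of windows hold at least 1) and a reversed glucocorticoid receptor hexamer 167 to 162 bases before the start (17.5%). Among the other 5 genes with an entry, Ccng1 alone held the p53 decamer, 232 to 223 bases before its start, and its signal had log2 FC of -0.08 on both days. Neither printed window held the E-box (5.59%) or the D-box (0.828%). A match is a description of the letters, and its use in these lungs was not measured.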

How the data were processed

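Per the labels, total RNA of the accessory lung lobe was amplified, labelled with 1 dye and hybridised on Agilent rat arrays. The authors deposited intensity values per spot from the scanner software Feature Extraction. Its version was 11.0.1.1 for 22 arrays and 12.0.1.1 for control replicate 4 of D28, which was also alone on its slide. Background had been subtracted inside each array, and arrays had not been normalised to each other. They also deposited a table of median intensities that is quantile normalised between arrays, used here as an alternative. The study's own limma analysis had a batch correction whose variable is not given in the sources used here, and none was applied here.

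Outlier spots were set missing. A probe was kept if 5 or more arrays had it over the 95th percentile of their 308 negative controls (40420 of 45598). Log2 processed signals were quantile normalised and averaged over the spots of a probe and the probes of a gene, which gave 23011 genes, 6951 of them with several probes, after 49 with a missing value were dropped. Averaging hides disagreement between probes, so single probes are given beside the mean. limma 3.58.1 in R 4.3.3 fitted the 4 group means over 23 arrays (residual degrees of freedom: 19) with Benjamini-Hochberg adjustment. Single rats were the replicates. The fit was tested on simulated data.

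The 9 genes, all lists and all tests were chosen with earlier results of these data known. The lists of clock genes, glucocorticoid-induced genes and the motifs were added after these tests were seen. Named were all 9 genes, Mdm4, DEGs of the lists (at most 6 per list and day, by size) and the 2 genes with the highest correlation to each of the 9. Some genes that this rule names are not reported here. Alternatives covered background, scaling, filter, probe choice, variance model, slide, replicate number, thresholds and 23 fits without 1 array. Promoter windows and their positions are from RefSeq's GRCr8 table, and probe positions are those of rn4. These builds were not converted into each other.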

Additional observations from a re-analysis of the deposited data

Results flagged for a closer look

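Of 36 sets of values, each gene in each group, 1 held a value far from the rest, and chance alone marks about 1 set in 20. Gdf15 had a signal of 6.27 in control replicate 6 of D0, against 8.13 for the next rat and 8.88 for the highest. The gap to the next rat took 0.713 of the range of the group. This array was on slide 5, where the other 3 arrays were also below the means of their groups. Without it the log2 FC of Gdf15 was 0.05 on D0, and it was 0.42 with it. The part of the slide in this value was not tested.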

How the results depend on the processing

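On D0, 0 of the 9 genes were DEGs under every alternative run. On D28 the count was 1 (Cdkn2b) and became 0 with normexp correction, with the median signal without background correction, with the deposited table, with no filter and with the D28 arrays alone. It became 2, with Cdkn1a, under 75th percentile scaling, the filter for spots well above background, the probe with the highest mean signal, each probe on its own, array weights, the slide as a random block and an unadjusted p with the FC limit. In the first 4 of the settings with 0, Cdkn2b had log2 FC from -0.51 to -0.45 and adjusted p from 0.00361 to 0.00854, so that only the FC limit was missed. Averaged over both days the count of 0 became 1 with no FC limit, and for the difference between the days the count of 0 became 1 (Cdkn1a) with an unadjusted p. Between the control groups the count of 3 became 1 (Cdkn2b) with normexp and with the slide as a fixed block, and 2 with the median signal and with the deposited table, where Bbc3 had log2 FC of 0.57 and 0.58. Without single arrays it ran from 1 to 3, and that of D28 from 1 to 2. For single genes, 71 of 1883 values turned sign, none of them a DEG before or after, 26 lost and 10 gained a call.

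With the replicate number as a block, the counts were 0 on D0, 1 on D28, 0 over both days, 0 for the difference and 2 between the control groups, where Cdkn1a had a log2 FC of 0.89 (limma adjusted p = 0.0717). The numbers did not pair the rats: same-numbered arrays deviated with a median correlation of -0.02, and the closest array of the other group had the same number in 2 of 11 cases. No other call changed under this block. With 5 or 6 rats a group, the intervals of Cdkn2a and Gdf15 cannot show changes under 1.5-fold. The cause of these changes was not tested, except that no filter adds the dim probe of Cdkn2b.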

Other observations

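Genes that glucocorticoids induce were read as a further set of values beside the clock genes. Of 8 tested, 2 were lower DEGs in exposed than in control rats of D28, beside 0.269% of all genes, 3 were lower on D0, beside 0.7%, and 1 was higher in control rats of D28 than of D0, beside 0.387%. Fkbp5, a chaperone of the glucocorticoid receptor, had a mean of 11.71 ± 0.16 (SD, n = 6) in controls of D0, 11.27 ± 0.03 (n = 5) in exposed rats of D0, 12.36 ± 0.66 (n = 6) in controls of D28 and 11.34 ± 0.39 (n = 6) in exposed rats of D28. Its log2 FC on D28 was -1.02 (SE 0.22, limma adjusted p = 0.0266), and it was 0.65 (SE 0.22, limma adjusted p = 0.21) between the control groups. In mean signal the controls of D28 were the highest group for Fkbp5, but they overlapped the controls of D0 (11.45 to 13.25 and 11.45 to 11.93). Klf9 and Dusp1 had their highest means in controls of D0, at 11.85 and 9.25 beside 11.82 and 8.54 in controls of D28. The other genes of the list had theirs in controls of D28. The part of glucocorticoids in the differences of Cdkn1a, Cdkn2b and Bbc3 was not tested.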
